A study of Mus musculus with 2 samples.

Results

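The genes described here encode nuclear subunits of the mitochondrial respiratory chain and ATP synthase, and the complex I assembly factors with an Ndufaf name. They are every gene whose symbol starts with Nduf, Sdha to Sdhd, Uqcr, Cox4 to Cox8 or Atp5. The rule uses names and no intensities, but it was set with earlier results of these data known. It gave 90 of the 18193 genes that could be named on the array. Of these, 36 encode complex I subunits, 8 are complex I assembly factors, 4 belong to complex II, 8 to complex III, 17 to complex IV and 17 to ATP synthase.

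The cells were bone marrow cells of C57BL/6 mice. One culture was transfected with control siRNA and the other with silncMDSC, the siRNA directed at lncMDSC, a long non-coding RNA for which the study uses the name lnc-C/EBPβ. Both then grew for 4 days with GM-CSF and IL6, the cytokines that turn such cells into myeloid-derived suppressor cells (MDSCs), immature granulocytic and monocytic cells able to hold back T cells. From each culture, 6 µg of total RNA was labelled and read on 1 Affymetrix mouse array, so there were no replicates, no difference could be tested, and each value describes these arrays alone. The knockdown was not analysed here, as the annotation ties no probe set to lncMDSC. The cultures are bulk samples, in which fewer cells of a type and less RNA per cell cannot be told apart.

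Respiration passes electrons from NADH through complex I, or from succinate through complex II, to coenzyme Q, complex III, cytochrome c and finally complex IV, which reduces oxygen to water. Complexes I, III and IV pump protons across the inner mitochondrial membrane, and ATP synthase uses the resulting gradient to make ATP. Complex I is the largest of these enzymes and is built stepwise from modules, which needs helper proteins that leave before the enzyme works. A few core subunits of complexes I, III and IV and of ATP synthase are encoded by mitochondrial DNA. Their genes do not fall under the names used here. Neither does Cyc1, the nuclear gene of cytochrome c1 in complex III. Myeloid cells differ in how far they rely on respiration or on glycolysis, and suppressor cells have been studied for both.

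The array reads each gene by 1 or more probe sets, and a gene was read here from its brightest probe set annotated to that gene alone. Values are probe set intensities, and each difference is log2(intensity + 1) in silncMDSC minus that in control siRNA, so negative values are lower in silncMDSC. A gene was counted when its mean log2 level over both arrays reached the floor, the median probe set of both arrays at an intensity of 78.4. This kept 11706 of all genes and 86 of the 90. The exceptions were Ndufb4, Cox7a1, Cox7b2 and Cox8b, and none of the 86 had only 1 of its intensities above the floor. The arrays had median intensities of 77.9 for control and 79.0 for silncMDSC. Over the respiratory chain genes the median intensity was 2123 and 2063, far above the floor on both. Hybridisation spikes were higher on the silncMDSC array by a median of 0.11 (18 probe sets) and poly-A spikes by 0.16 (27 probe sets). The part of these offsets in the results was not tested.

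Most subunits of the respiratory chain were nearly level between the cultures. Of the 78 subunit genes above the floor, 74 (94.9%) lay within 1.2-fold, against 82.7% of all genes above the floor and 86.1% of the 1722 genes with a mean log2 level of at least 10. The subunits' differences had a robust SD (scaled median absolute deviation) of 0.081, against 0.17 for all genes. Many of the subunits are bright. Among the 66 subunits at a mean level of at least 10 the robust SD was 0.073 and 97.0% lay within 1.2-fold, against a robust SD of 0.16 for all genes at such levels. The median difference of the 78 subunits was -0.047, beside -0.0031 for all genes and -0.032 for the bright ones.

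Counted over all 86 genes, 1 was at least 1.2-fold higher in silncMDSC and 5 were at least 1.2-fold lower. Among all genes above the floor these shares were 6.78% and 10.5%, and among the bright genes 5.57% and 8.3%. At 1.5-fold, 0 were higher and 1 was lower, where all genes gave 0.914% and 1.38%. At 2-fold, 0 were higher and 1 was lower, where all genes gave 0.154% and 0.12%. The gene past 1.5-fold and past 2-fold was the same, the assembly factor Ndufaf4.

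Small differences leaned to the lower side, and how far depended on the scaling. Below control were 62 of the 86 genes (72.1%), against 50.9% of all genes and 58% of bright genes. With a loess trend on level removed the number was 50 (58.1%), against 49.8% of bright genes, and with quantile normalization 52 (60.5%), against 51.9%. The median over the 86 genes was -0.050, and it was -0.019 and -0.023 under these scalings, which keep the sign and take away much of its size.

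**Figure D1:**
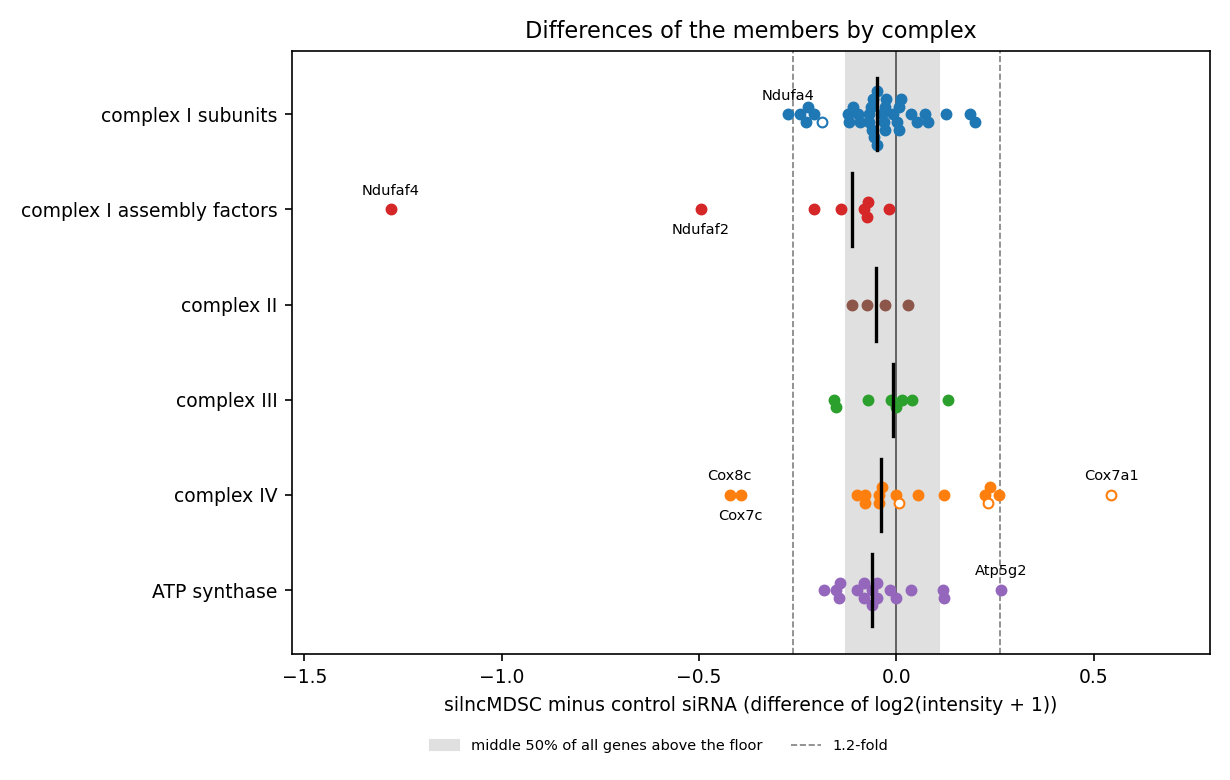
Each point is 1 respiratory chain gene, placed by its silncMDSC minus control difference (x axis, log2 of intensity + 1, 1 array per group) in the row of its complex, with genes below the floor marked apart. The assembly factor row reaches -1.28 at Ndufaf4, while complex I subunits stay between -0.27 and 0.20 and ATP synthase between -0.18 and 0.26.

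By complex, the 35 complex I subunits above the floor had a median difference of -0.049. Of these, 24 (68.6%) were below control, against 50.9% of all genes and 58% of bright genes. The medians were -0.051 over the 4 genes of complex II, -0.0076 over the 8 of complex III, -0.040 over the 14 of complex IV and -0.061 over the 17 of ATP synthase. The sign of 3 of these medians depended on the setting. Complex III was at 0.028 with a loess trend removed and 0.019 with quantile normalization, and with the lowest probe set of each gene above the floor complex II was at 0.0011 and complex IV at 0.031. Differences between these medians were not tested. The assembly factors of complex I, with a median of -0.11 and all 8 below control (all genes, 50.9%), were the group farthest down. Over all settings their median ran from -0.21 to -0.078. The -0.21 came with a floor at the 75th percentile, which left 5 of them.

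**Figure D2:**
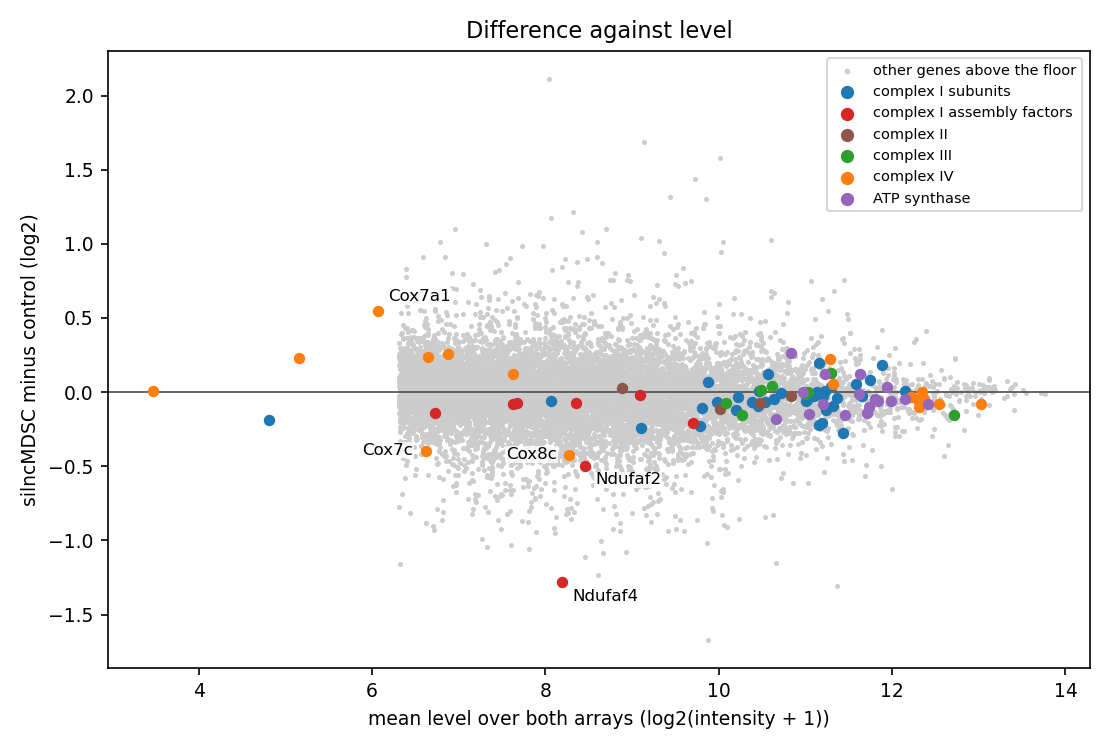
The mean level of each gene over both arrays (x axis, log2 of intensity + 1) is plotted against its silncMDSC minus control difference (y axis, log2), with all 11706 genes above the floor in grey and the respiratory chain genes in colour. The 66 subunits at a mean level of at least 10 form a narrow band near 0, with a robust SD of 0.073, and Ndufaf4 lies far below it at -1.28.

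Ndufaf4, which with Ndufaf3 joins an early intermediate of complex I around the part that binds coenzyme Q, was the gene farthest down. Its brighter probe set read 454 in control and 186 in silncMDSC, a difference of -1.28 or 2.43-fold lower. It ranked 3 from the lowest of the 11706 genes. The other probe set of Ndufaf4 read 214 and 101, a difference of -1.08. Both probe sets thus placed the gene at least 2-fold lower, and over all settings tried its difference ran from -1.28 to -1.08. Ndufaf3, its partner, had 551 in control and 544 in silncMDSC (-0.018), level between the cultures, and its sign turned with a loess trend removed or quantile normalization.

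Ndufaf2 was the next farthest. It is a paralogue of the subunit Ndufa12 that holds the place of that subunit late in assembly. Its intensity was 415 in control and 294 in silncMDSC (-0.50, or 1.41-fold lower), which ranked 265 from the lowest of all genes. No setting moved it beyond -0.50 to -0.47, and it has no second probe set above the floor. Ndufa12 itself had 2466 in control and 2110 in silncMDSC (-0.22), so both of these paralogues were on the lower side, by different amounts.

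The other assembly factors lay within 1.2-fold. Ndufaf8, the partner that stabilises Ndufaf5, had 897 and 776 (-0.21), but its other probe set had 204 and 202 (-0.016). Ndufaf5, which hydroxylates an arginine of the subunit Ndufs7, had 110 and 99.8 (-0.14). Ndufaf1, a core member of the complex I intermediate assembly complex, had 202 and 191 (-0.083). Ndufaf7, a methyltransferase of complex I assembly, had 208 and 197 (-0.073), and Ndufaf6, which acts early in assembly, had 335 and 319 (-0.071). All 8 assembly factors were below control as read, and 7 of 8 under the loess and quantile scalings, but only Ndufaf4 and Ndufaf2 were past 1.2-fold.

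**Figure D3:**
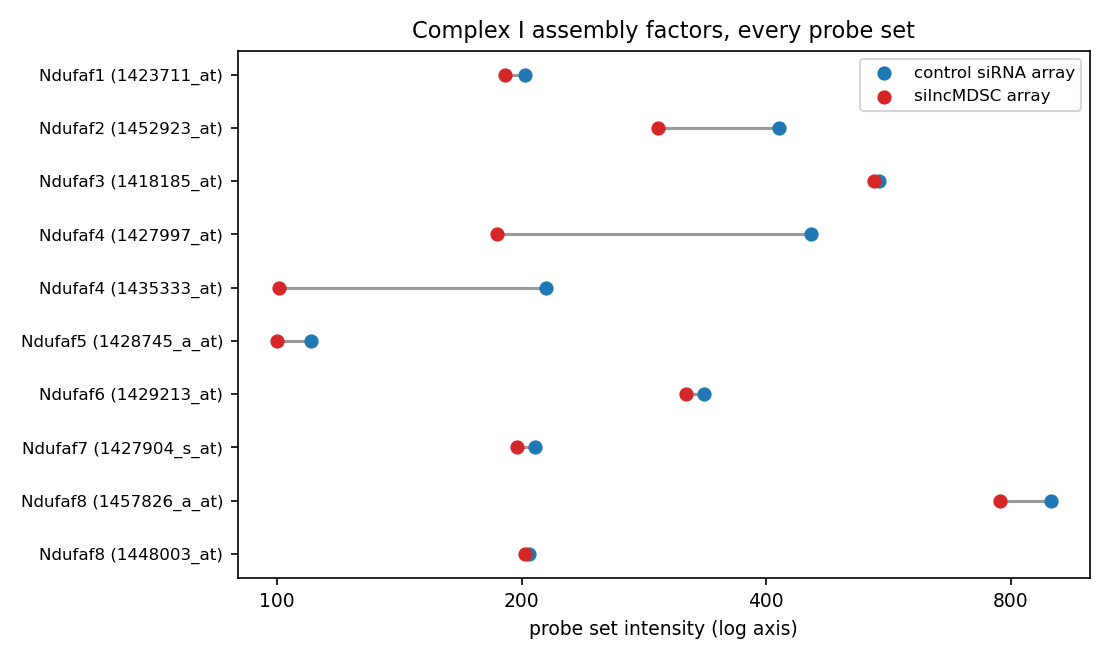
Intensities of every probe set of the 8 Ndufaf genes (x axis, log scale) are drawn as a pair of points, control siRNA and silncMDSC, joined by a line, 1 row per probe set. Both rows of Ndufaf4 show a wide gap (454 to 186 and 214 to 101), Ndufaf2 a smaller one (415 to 294), and the other rows lie close together.

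The promoters of the 3 assembly factors farthest below control are shown because Ndufaf4 and Ndufaf2 were the genes past 1.2-fold and Ndufaf8 came next. They are the 250 bases before the RefSeq start on the gene's strand, 5′ to 3′, from assembly GRCm38.p6. The stretch for Ndufaf4 is chr4:24897833-24898082 on the plus strand, for Ndufaf2 chr13:108158626-108158875 on the minus strand and for Ndufaf8 chr11:120098684-120098933 on the plus strand. Capitals mark the NRF1-type letters, GCGCA and GCGC with any base between them, in Ndufaf4, and CCGGAAG, the type that ETS factors such as GABP bind, in Ndufaf8. NRF1 and GABP are known for driving many respiratory chain genes. The Ndufaf2 stretch holds neither.
Ndufaf4: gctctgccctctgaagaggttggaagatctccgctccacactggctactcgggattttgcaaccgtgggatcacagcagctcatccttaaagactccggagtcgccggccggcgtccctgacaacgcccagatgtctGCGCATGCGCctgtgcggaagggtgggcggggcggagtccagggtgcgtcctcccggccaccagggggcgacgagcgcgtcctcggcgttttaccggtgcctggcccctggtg
Ndufaf2: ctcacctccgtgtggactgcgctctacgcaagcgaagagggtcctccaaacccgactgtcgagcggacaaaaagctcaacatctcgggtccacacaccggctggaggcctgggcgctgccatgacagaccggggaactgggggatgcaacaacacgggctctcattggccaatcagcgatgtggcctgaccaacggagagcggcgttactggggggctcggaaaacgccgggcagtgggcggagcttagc
Ndufaf8: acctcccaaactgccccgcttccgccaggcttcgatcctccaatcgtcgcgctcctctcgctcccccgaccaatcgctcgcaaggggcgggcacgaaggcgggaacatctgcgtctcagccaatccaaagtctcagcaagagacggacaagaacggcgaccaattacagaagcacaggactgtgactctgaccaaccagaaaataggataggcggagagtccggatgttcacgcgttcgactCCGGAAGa

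A RefSeq window of 250 bases before to 50 bases after the start was at hand for 74 of the 90 genes. The NRF1-type letters, searched on both strands, were found in 17 of the 74 (23.0%), against 11.1% of the 9477 genes above the floor that have a window and 4.60% of all 32851 windows. In Ndufaf4 they lie 113 to 104 bases before the start. CCGGAAG, on both strands, was found in 19 (25.7%), against 19.4% of genes above the floor and 8.86% of windows. The E-box CACGTG, which reads alike on both strands and is the type of site that Myc binds, was found in 6 (8.11%), against 11.8% of genes above the floor and 7.15% of windows, and in 0 of the 7 assembly factors with a window. The letters did not separate the genes by difference. The 16 genes above the floor with the NRF1-type letters ranged from -1.28 for Ndufaf4 to 0.26 for Atp5g2, with a median of -0.075 against -0.050 over the 54 without. For CCGGAAG the medians were -0.074 over 19 genes and -0.050 over 51, and for CACGTG -0.071 over 6 and -0.053 over 64. These matches are descriptions of letters, not of binding, and a match missing from a window says nothing about the factor.

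Complex I subunits were close to control, the enzyme's core included. The subunits of the coenzyme Q module, among which Ndufaf3 and Ndufaf4 act, were Ndufs3 (1448 in control and 1358 in silncMDSC, -0.093), Ndufs7 (1407 and 1415, 0.0078) and Ndufs8 (1684 and 1673, -0.0089). Of the NADH-binding module, the flavin-carrying Ndufv1 had 914 and 961 (0.071), Ndufv2 had 1622 and 1568 (-0.049) and the iron-sulphur subunit Ndufs1 had 600 and 506 (-0.24). Ndufs1 was thus the core subunit farthest from control among these, and still 1.19-fold lower.

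The other complex I subunits most below control were accessory ones. Ndufa4 had 3053 in control and 2524 in silncMDSC (-0.27), the 1 complex I subunit past 1.2-fold. By name it falls with complex I, but biochemical work has since placed the protein in complex IV. Its tissue-restricted relative Ndufa4l2, a gene induced by low oxygen, had 272 and 261 (-0.058). Ndufa5 had 957 and 816 (-0.23), with -0.27 on its other probe set. Ndufa12 had -0.21 and -0.17 on the other probe sets above the floor. Ndufab1, the mitochondrial acyl carrier protein, had 2513 and 2175 (-0.21), with -0.25 and 0.049 on its other probe sets above the floor.

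On the other side, Ndufa6 had 2137 in control and 2453 in silncMDSC (0.20), Ndufv3 had 3540 and 4025 (0.19) and Ndufb1 had 1460 and 1592 (0.12). All 3 are accessory subunits and all lay within 1.2-fold. The remaining complex I subunits above the floor lay between -0.12 for Ndufb6 and 0.080 for Ndufb11. Ndufb4, read below the floor at 28.9 and 25.3, has brighter probe sets that the annotation gives to Ndufb4 together with its copies Ndufb4b and Ndufb4c. These had 1596 and 1513 (-0.077) and 1254 and 1144 (-0.13), and cannot be credited to 1 gene.

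In all, 10 probe sets carry the name of a respiratory chain gene beside another gene and were left out of the counts. They include those shared by Ndufa11 and Ndufa11b (1122 and 1077, -0.060), by Ndufs6 and Ndufs6b (1395 and 1327, -0.072) and by Ndufs5 and a pseudogene (1231 and 1200, -0.036). The shared probe set of Ndufab1 and its pseudogene had 1052 and 890 (-0.24), close to the value of the brightest probe set of Ndufab1 alone. The 7 shared probe sets above the floor ran from -0.24 to 0.089.

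Complex II, which is also the succinate dehydrogenase of the citric acid cycle, was level. The flavin subunit Sdha had 1078 in control and 998 in silncMDSC (-0.11), but its other probe set had 979 and 1064 (0.12), so its side is not settled. The iron-sulphur subunit Sdhb had 1457 and 1384 (-0.074). The membrane anchors Sdhc, at 466 and 475 (0.029), and Sdhd, at 1845 and 1809 (-0.028), bracketed 0.

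The Uqcr genes of complex III differed little as well. Those most below control were Uqcrb, which lies near the coenzyme Q site (7101 in control and 6366 in silncMDSC, -0.16), Uqcr11 (1299 and 1168, -0.15) and the core protein Uqcrc1 (1116 and 1062, -0.071). Cyc1, a complex III subunit outside these names, was farther below control than any of them, at 2045 in control and 1734 in silncMDSC (-0.24). The hinge protein Uqcrh, which helps cytochrome c dock, was the highest at 2411 and 2639 (0.13), with 0.093 on its other probe set. The second core protein Uqcrc2 (0.040) and Uqcr10 (0.014) had other probe sets on the opposite side of 0. Uqcrfs1, the Rieske iron-sulphur protein, was at -0.015 and Uqcrq at -0.00063.

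Complex IV held the widest spread among subunits, at its dim genes. Several of its subunits exist as isoforms, one in most tissues and another in muscle, lung or testis. The common isoforms were bright and level. Cox4i1 had 5083 in control and 4932 in silncMDSC (-0.044), Cox6a1 had 8568 and 8113 (-0.079), Cox6b1 had 5386 and 5223 (-0.044), Cox7a2 had 5275 and 4919 (-0.10) and Cox8a had 2503 and 2602 (0.056). The largest of these shifts, that of Cox7a2, was 1.07-fold, and the signs of Cox6b1 and Cox8a turned under other settings.

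The restricted isoforms were read at lower intensities than the common ones. Close to the floor or below it, a few units make a large log2 difference. Cox4i2, the lung isoform, had 106 in control and 128 in silncMDSC (0.26), and the testis isoform Cox6b2 had 91.6 and 108 (0.24), both under 1.2-fold. The muscle isoform Cox6a2 had 189 and 205 (0.12). Below the floor lay the muscle isoforms Cox7a1 (54.6 and 80.1, 0.54) and Cox8b (32.0 and 37.7, 0.23) and the testis isoform Cox7b2 (10.1 and 10.2, 0.0078). The testis isoform Cox8c had 358 and 267 (-0.42), but its other probe set above the floor had 86.3 and 94.5 (0.13), so the direction of this gene rests on the probe set chosen.

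Cox7c, another small subunit, was read close to the floor and had 112 in control and 85.0 in silncMDSC (-0.39), with a dimmer probe set below the floor at 26.4 and 19.0 (-0.45). Cox7a2l, which links complexes III and IV into supercomplexes, had the same direction on every probe set above the floor. Its intensities were 2305 in control and 2693 in silncMDSC (0.22), 2044 and 2580 (0.34), and 1858 and 2307 (0.31) on 3 probe sets. All 3 were higher in silncMDSC, and the dimmer 2 were past 1.2-fold where the brightest was not.

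ATP synthase was nearly level in both its catalytic head and its membrane part. The catalytic subunits Atp5a1 (3532 in control and 3199 in silncMDSC, -0.14) and Atp5b (2211 and 2000, -0.14) were slightly lower, and the 3 probe sets of Atp5a1 ran from -0.14 to -0.11. The head's small subunits Atp5d (3039 and 3303, 0.12) and Atp5e (2300 and 2498, 0.12) were slightly higher. Atp5md, a membrane subunit that helps the enzyme pair up, had 2973 and 2676 (-0.15).

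The rotor ring of ATP synthase is built from 1 protein encoded by 3 genes, and these lay on different sides of control. Atp5g1 had 1726 in control and 1519 in silncMDSC (-0.18), and Atp5g3 had 5612 and 5303 (-0.082). Atp5g2 had 1662 and 1996 (0.26), the 1 respiratory chain gene at least 1.2-fold higher among those above the floor. Its dimmer probe set above the floor had 83.9 and 87.5 (0.060).

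Repeat readings within the arrays differed less in size for these genes than for genes at large. The comparison was not matched for level, and many of these genes are bright. Among 47 respiratory chain genes with another probe set above the floor, 72 pairs of brightest and other probe sets disagreed by a median of 0.049, and 53 pairs lay on the same side of 0. Over 4696 genes of all kinds the 7521 pairs disagreed by a median of 0.095, with 5339 on the same side. Of the 3 respiratory chain genes past 1.2-fold with another probe set above the floor, Ndufaf4 and Atp5g2 had it on the same side and Cox8c did not. Probe sets of a gene share the sample and the array, so this spread is no replicate error.

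**Figure D4:**
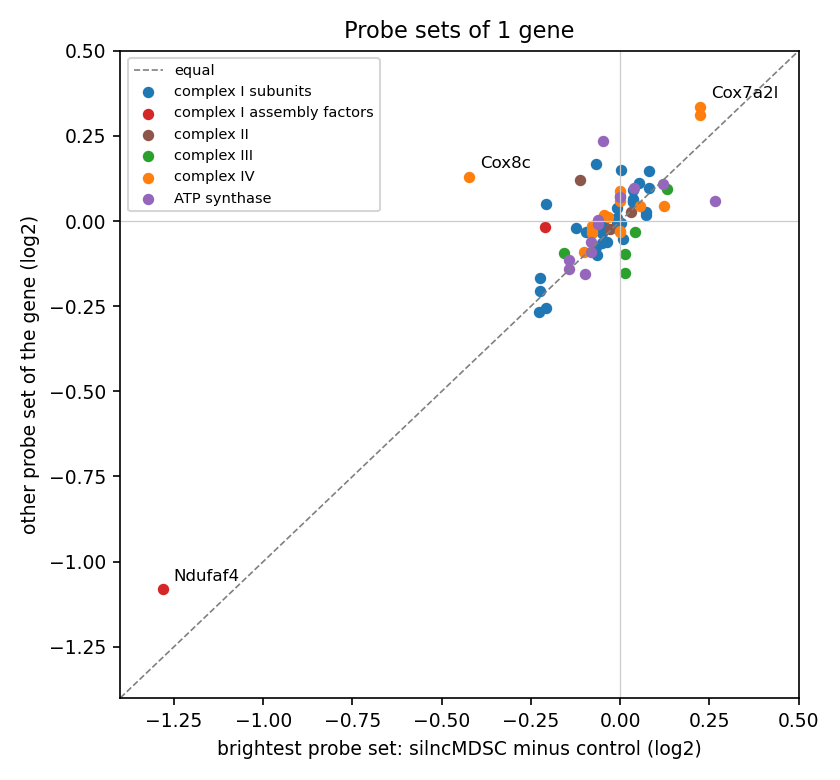
For each respiratory chain gene, the difference of its brightest probe set (x axis, log2) is set against that of each other probe set above the floor (y axis, log2). Colours mark the complexes. Ndufaf4 lies at -1.28 and -1.08, apart from the other genes near 0, and Cox8c lies at -0.42 and 0.13, off the diagonal.

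Genes that build or serve the respiratory chain were described beside its subunits, from lists chosen by function. The 8 complex I assembly factors outside the Ndufaf names that were above the floor had a median of -0.11. Of these, 5 were below control (all genes, 50.9%) and 0 were past 1.2-fold (all genes, 10.5% lower and 6.78% higher). Among them were Tmem70 (585 in control and 500 in silncMDSC, -0.23), Acad9 (331 and 286, -0.21) and Ecsit (157 and 139, -0.17), the last of these a partner of Ndufaf1, as is Acad9. Tmem186, read just above the floor, was at 0.21, but each of its other probe sets, all below the floor, was lower in silncMDSC. None of the 8 was as far from control as Ndufaf2.

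For complex II, 4 assembly factors had a median of 0.0095, with 0 past 1.2-fold (all genes, 10.5% lower and 6.78% higher). Sdhaf4 was at 0.21, Sdhaf1 at -0.11 and Sdhaf3 at 0.020. For ATP synthase, 5 genes outside the subunits had a median of -0.0033, with 0 past 1.2-fold against the same shares of all genes. Its assembly factor Atpaf1 had 169 and 141 (-0.26), with -0.096 on the other probe set, Fmc1 was at -0.18, and the inhibitor Atpif1 was at 0.055.

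Most assembly genes of complexes III and IV were below control. Of 6 genes for cytochrome c1 and complex III assembly, 5 were below control (all genes, 50.9%) and 1 was at least 1.2-fold lower (all genes, 10.5%), with a median of -0.25. That median was -0.0067 with the lowest probe set of each gene above the floor and -0.13 with a floor at the 75th percentile. Cyc1, the cytochrome c1 that passes electrons on, had 2045 in control and 1734 in silncMDSC (-0.24), and Uqcc2, a factor for making cytochrome b, had 1121 and 938 (-0.26). Ttc19 was at -0.26, with -0.41 and 0.034 on its other probe sets. Uqcc1, a partner of Uqcc2, had 181 and 129 (-0.49), but its other probe set above the floor read 134 and 136 (0.023).

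Of 20 complex IV assembly genes, 15 were below control (all genes, 50.9%), with a median of -0.15. At least 1.2-fold lower were 6 (all genes, 10.5%), and 0 were higher (all genes, 6.78%). The 3 farthest were Coa7 (194 in control and 130 in silncMDSC, -0.57), Cox10, an enzyme of haem A synthesis (212 and 155, -0.45), and the copper chaperone Sco2 (179 and 134, -0.41). Cox10 had -0.45 and -0.19 on its other probe sets.

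Electron carriers were uneven. Of 15 genes for cytochrome c, coenzyme Q synthesis and electron transfer flavoprotein, 11 were below control (all genes, 50.9%) and 5 were at least 1.2-fold lower (all genes, 10.5%), with a median of -0.051. The median was -0.14 with a floor at the 75th percentile and -0.13 with the mean of all probe sets. Cytochrome c itself, Cycs, had 3308 in control and 2560 in silncMDSC (-0.37), with -0.51 and -0.52 on its other probe sets above the floor, so all 3 placed it lower. In coenzyme Q synthesis, Coq7 had 292 and 222 (-0.39), and the coenzyme Q binding protein Coq10b had 177 and 136 (-0.38).

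Around the citric acid cycle, 12 of 17 genes were below control (all genes, 50.9%), with a median of -0.077 that was -0.044 with a loess trend removed and -0.028 with quantile normalization. Past 1.2-fold, 1 was lower and 1 higher, no more than the 10.5% and 6.78% of all genes. Idh3a, the catalytic subunit of NAD-dependent isocitrate dehydrogenase, read 1034 in control and 649 in silncMDSC (-0.67, or 1.59-fold lower), but -0.20 and -0.32 on its other probe sets above the floor. Pdk1, the kinase that switches off pyruvate dehydrogenase, had 755 and 1097 (0.54), with 0.53 and 0.61 on its others. Dlat, a core subunit of pyruvate dehydrogenase, had 396 and 346 (-0.19).

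Genes of mitochondrial DNA upkeep and transcription had 14 of 19 below control (all genes, 50.9%), with a median of -0.11 that was -0.063 with a floor at the 75th percentile. Past 1.2-fold, 2 were lower and 1 higher, near the 10.5% and 6.78% of all genes. Pprc1, a co-activator of the PGC-1 family that works with NRF1 on respiratory genes, read 254 in control and 145 in silncMDSC (-0.80, or 1.74-fold lower). Gabpb1, a subunit of GABP, had 209 and 173 (-0.27), with -0.28 on its other probe set. Polg2, a subunit of the mitochondrial DNA polymerase, had 131 and 161 (0.30).

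Genes of protein import and the mitochondrial membranes had 17 of 21 below control (all genes, 50.9%) and a median of -0.13. Past 1.2-fold, 8 were lower and 0 higher, where all genes gave 10.5% and 6.78%. The import channel gene Tomm40 read 401 in control and 243 in silncMDSC (-0.72, or 1.65-fold lower). The chaperonin Hspd1 had 2865 and 1971 (-0.54) and the inner membrane channel gene Timm23 had 3193 and 2390 (-0.42). This list had the largest number past 1.2-fold among the 9 lists, while the subunits of the chain had 3 of 78 lower at that threshold. No list is a random sample of genes, and these differences between lists were not tested.

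**Figure D5:**
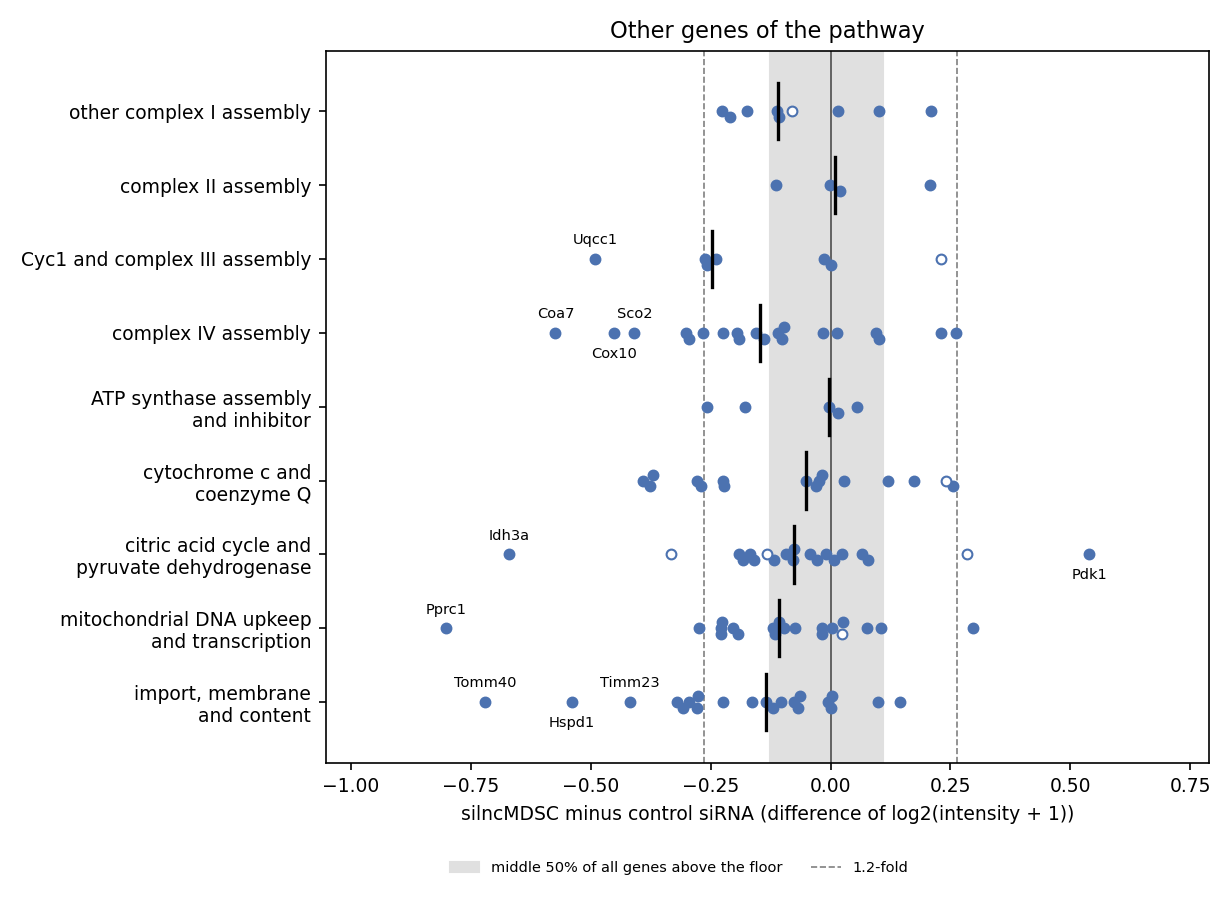
Each point is a gene, filled if above the floor and open if below it. It is placed by its silncMDSC minus control difference (x axis, log2 of intensity + 1). Each of the 9 lists of genes that build or serve the respiratory chain has 1 row. Points reach -0.80 (Pprc1), -0.72 (Tomm40) and -0.67 (Idh3a) on the lower side and 0.54 (Pdk1) on the higher side.

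Marker genes of several cell types differed between the arrays beside these results. Of all genes above the floor, 50.9% were below control, the share to set beside each count of lower genes here. MDSC and neutrophil genes had summed intensities of 54943 in control and 53952 in silncMDSC over 8 genes, 6 of them lower. That sum was set mostly by S100a8, S100a9 and Ngp. Of the 8, 7 lay within 1.2-fold (all genes, 82.7%), and the chemokine receptor Cxcr2 was higher, with 779 and 1053 (0.44). S100a9 had 13983 and 13880, and Itgam, which encodes CD11b, had 2144 and 2040, so the labelled cell type had its defining genes on both arrays (Ly6g has no probe set of its own here). The monocyte and macrophage sum was 18099 and 15909, with 8 of 10 genes lower, but unevenly. Mrc1 (-0.93), Msr1 (-0.91), Apoe (-0.88) and Maf (-0.85) were past 1.5-fold lower (all genes, 1.38%). Adgre1 (-0.0012) and C1qa (-0.031) were level, and Csf1r (0.089) and Ccr2 (0.34) were higher. The dendritic cell and class II sum was 16566 and 22472, with 0 of 9 lower. Of the 9, 8 were at least 1.2-fold higher (all genes, 6.78%) and 4 at least 1.5-fold higher (all genes, 0.914%). The eosinophil, mast cell and basophil sum was 8637 and 10316, with 1 of 7 lower, and the lymphoid and erythroid sum 1892 and 1879, with 5 of 10 lower. In each list 0 genes sat at the lowest value of the arrays. The part of these shifts in the values of Ndufaf4, Ndufaf2 and the other genes was not tested.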

How the data were processed

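Total RNA of 2 cultures, 1 per siRNA, was read on Affymetrix mouse genome arrays. The values deposited by the authors were linear intensities per probe set. The submitters' processing notes name RMA, with no version. Its usual output is on a log2 scale, whereas these intensities were linear and none was below 1, which no source used here explains.

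Of 45101 probe sets, 64 were array controls, 34945 had 1 gene symbol in the platform annotation, 932 several and 9160 none. All 90 respiratory chain genes were found in RefSeq (GRCm38.p6) by Entrez identifier. Levels were log2(intensity + 1). The floor on the mean of both arrays does not favour genes that differ. The study's methods name limma, which cannot be fitted with 1 array per group, so differences are described by size. The number of arrays limits the precision.

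The genes and lists were chosen with earlier results of these data known. Named are all Ndufaf and Sdh genes, isoform families, genes at least 1.5-fold apart, the 3 genes most above and most below control in each complex and up to 3 per list farthest from 0. Ndufs3, Ndufs7, Ndufs8, Ndufv1, Ndufv2, Ndufa12, Ndufab1, Atp5a1, Cyc1, Ecsit and a few others given for their role were added after their values were seen. Alternatives were another pseudocount, scalings, floors and probe set rules. The count below control and the comparison with bright genes were added after the values were seen. The calculation was tested on simulated data. Python 3.11.15, numpy 2.4.6, pandas 2.3.3 and statsmodels 0.14.6 were used.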

Additional observations from a re-analysis of the deposited data

How the results depend on the processing

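No paired analysis was possible because each group had 1 array. Over 13 settings, 353 summary values stayed close to the main setting and 61 moved. The limit for a median was the spread of a single probe set (0.10) divided by the square root of the number of genes. It is thus far smaller than that spread in large groups. The limit for a count was a change of more than 1.5 times. The medians of 5 groups changed sign under some setting, those of complexes II, III and IV and of the assembly genes of complex II and of ATP synthase. Of the named genes, 69 kept their sign under all settings and 17 did not (Cox6b1, Cox8a, Cox8c, Ndufab1, Ndufaf3, Ndufs7, Ndufs8, Sdha, Sdhd, Uqcr10, Uqcrc2, Uqcrfs1, Uqcrq, Sdhaf3, Tmem186, Ttc19 and Uqcc1). With the lowest probe set above the floor, Cox8c was at 0.13 and Uqcc1 at 0.023.

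A loess trend removed moved the medians to -0.019 over all respiratory chain genes, -0.014 for complex I, 0.028 for complex III, -0.010 for complex IV, -0.029 for ATP synthase, -0.12 for complex IV assembly, -0.044 for the citric acid cycle and -0.099 for import. Quantile normalization gave -0.023, -0.015 (complex I), -0.012 (complex IV), -0.021 (ATP synthase), -0.11 (complex IV assembly), -0.028 (citric acid cycle) and -0.082 (mitochondrial DNA). Under both, and with Ndufa4 and Ndufa4l2 placed in complex IV, 0 complex I subunits were at least 1.2-fold lower.

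With the mean of all probe sets, the medians were -0.031 (complex I), -0.059 (complex III), -0.18 (complex III assembly), -0.12 (complex IV assembly) and -0.13 (carriers), with 2 of all genes and 1 of complex IV at least 1.2-fold higher, and 0 of complex IV and 1 of ATP synthase lower. With the lowest probe set they were -0.027 (all), -0.026 (complex I, 2 lower), 0.0011 (complex II), -0.052 (complex III), 0.031 (complex IV, 1 higher and 1 lower), -0.0067 (complex III assembly), -0.18 (complex IV assembly) and -0.056 (ATP synthase assembly), with 0 of ATP synthase higher. Without cross-hybridising probe sets, 2 of all genes were higher, 1 of complex IV higher and 1 lower, and import was at -0.17.

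A floor at the 75th percentile left 5 assembly factors, all 5 below control, with a median of -0.21, and gave 1 of complex IV lower and medians of -0.13 (complex III assembly), -0.11 (complex IV assembly), -0.14 (carriers) and -0.063 (mitochondrial DNA). No floor, or a floor on the higher value, gave 2 of all genes and 1 of complex IV higher, and no floor a complex IV median of -0.0017. A pseudocount of 16 left 0 genes higher, among all and in ATP synthase. Without the farthest gene of each group, 0 of all genes were 1.5-fold lower, 1 assembly factor and 1 gene of complex IV were 1.2-fold lower and 0 of ATP synthase higher, since that gene was 1 of those counted. For the scalings the cause was not tested. Low signal limits Cox4i2, Cox6b2, Cox7c and Ndufaf5, which lie close to the floor of 78.4.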
